A study of Mus musculus with 28 samples.

Results

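The nuclear-encoded respiratory chain genes described here are 47 of the genes for subunits of the 5 complexes of oxidative phosphorylation. They were chosen by symbol from the gene names of the chain, with earlier results of these data known. They comprise 22 genes of complex I, 4 of complex II, 7 of complex III, 10 of complex IV and 4 of complex V. The 47 symbols matched 48 of the 35880 rows of the deposited table, because Atp5o has a second identifier, which had no count in any library. All 47 genes passed the filter on low counts and were among the 14887 genes tested.

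RNA came from whole-lung homogenates of wild-type male C57BL/6 mice, an inbred strain, aged 8 to 12 weeks per the labels. The exposures were carbon black plus ozone (CB-O3), ozone alone at 2 ppm (O3), carbon black alone at 10 mg/m3 (CB) and sham, each lasting 3 hours, and the co-exposure used the same 2 concentrations. Carbon black is a particle of nearly pure carbon, and ozone is an oxidant gas. The day 4 groups had 4 exposures and 3 libraries each, and the day 1 groups had 1 exposure and 4 libraries each, 28 libraries in all. Day and number of exposures therefore cannot be told apart. Whether libraries of a group came from separate mice is not stated in the labels, and the p-values below reflect the variation among libraries, which may be technical. All comparisons with sham of one day share the same sham libraries.

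The respiratory chain sits in the inner mitochondrial membrane. Complexes I and II pass electrons from NADH and succinate to ubiquinone, complex III passes them to cytochrome c, and complex IV passes them to oxygen. Protons pumped on the way drive ATP synthesis by complex V. Complexes I, III, IV and V combine subunits from nuclear genes with subunits from mitochondrial DNA, whereas all subunits of complex II are nuclear. Nuclear respiratory factor 1 and the ETS-family factor GABP are known to bind the promoters of many of these genes.

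Promoter sequences of 300 bases, from before to just after the transcription start, were taken from RefSeq (build GRCm38.p6), where 36 of the 47 genes matched. A nuclear respiratory factor 1 motif, searched as GCGCA, any 1 base and GCGC on both strands, was present for 9 of these 36 genes, or 25%, and in 4.6% of all 32851 RefSeq promoters. An ETS motif, searched as CCGGAAG on both strands, was present for 8 of the 36, or 22.2%, and in 8.86% of all promoters. Both motifs were present for 2 genes, Sdhd and Cox6a1, or 5.56% of the 36, and in 0.892% of all promoters. The 36 genes had 38 promoters, and a gene was counted if any of its promoters matched. The shares of all RefSeq promoters are per promoter. A match describes the letters only and does not show binding. The sequences below are shown because they belong to the gene with the largest change (Cox5a), to a pair of genes of one complex of which 1 rose and 1 did not (Sdhd and Sdha), and to the complex I gene with the smallest p (Ndufs8). Motif matches are in capitals, 5′ to 3′ along the gene. Sdhd lies at chr9:50603800-50604099 on the minus strand, Sdha at chr13:74350191-74350490 on the minus strand, Cox5a at chr9:57520982-57521281 on the plus strand and Ndufs8 at chr19:3912725-3913024 on the minus strand.
Sdhd: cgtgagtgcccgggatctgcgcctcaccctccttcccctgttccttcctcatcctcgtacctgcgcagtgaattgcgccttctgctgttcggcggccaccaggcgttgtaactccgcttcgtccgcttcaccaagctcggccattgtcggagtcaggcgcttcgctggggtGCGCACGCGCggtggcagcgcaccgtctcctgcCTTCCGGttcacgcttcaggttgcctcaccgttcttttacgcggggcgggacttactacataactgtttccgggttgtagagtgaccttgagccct
Sdha: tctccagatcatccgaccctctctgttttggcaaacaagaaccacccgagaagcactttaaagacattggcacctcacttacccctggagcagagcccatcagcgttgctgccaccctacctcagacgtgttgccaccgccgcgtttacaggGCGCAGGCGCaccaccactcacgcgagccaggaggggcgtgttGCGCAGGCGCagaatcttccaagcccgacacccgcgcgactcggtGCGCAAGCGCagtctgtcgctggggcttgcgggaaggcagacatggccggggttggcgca
Cox5a: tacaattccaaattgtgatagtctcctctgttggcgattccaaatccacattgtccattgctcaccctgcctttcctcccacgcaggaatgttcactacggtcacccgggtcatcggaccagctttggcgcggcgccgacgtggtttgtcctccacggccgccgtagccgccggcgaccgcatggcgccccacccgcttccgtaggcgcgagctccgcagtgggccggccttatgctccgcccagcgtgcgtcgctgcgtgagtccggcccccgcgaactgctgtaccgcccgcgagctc
Ndufs8: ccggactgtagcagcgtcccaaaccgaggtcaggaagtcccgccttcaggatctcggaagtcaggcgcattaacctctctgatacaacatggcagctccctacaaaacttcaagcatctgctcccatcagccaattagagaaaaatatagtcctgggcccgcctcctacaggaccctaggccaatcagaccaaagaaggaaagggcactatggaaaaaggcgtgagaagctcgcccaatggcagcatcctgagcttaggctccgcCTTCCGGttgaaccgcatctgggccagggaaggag
Sdhd held 1 match of each motif, Sdha held 3 of the nuclear respiratory factor 1 motif, Ndufs8 held 1 of the ETS motif and Cox5a held neither.

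Levels are given as CPM, counts relative to the library total, after TMM scaling, which adjusts those totals for differences in composition. Total counts were between 5135492 and 9718770 per library, with a median of 7193146. Some libraries stood apart from their group. Among the co-exposed day 4 libraries, replicates 2 and 3 had slopes of -0.15 and -0.18 (log2 level per doubling of exonic gene length, over all genes, relative to the mean of all libraries), while replicate 1 had -0.0040. Replicate 3 also had 819 CPM in the sum of 8 skeletal muscle markers, against 15.4 to 22.7 CPM in the sham libraries of that day. Sham replicate 2 of day 1 had 1876 CPM of these markers, against 13.0 to 19.1 CPM in the other sham libraries of that day, and 426 CPM of 8 brown fat markers. Skeletal muscle markers were also at 948 CPM in ozone replicate 2 of day 1 and at 478 CPM in carbon black replicate 3 of day 4, and brown fat markers at 316 CPM in carbon black replicate 2 of day 1. The groups of these last 3 libraries had no call among the 47 genes against sham with all libraries included. They also had none with that library left out, which does not test the part of these markers. Lung epithelial markers were abundant in every library: the sum of 7 alveolar type 2 markers was between 21605 and 28828 CPM.

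Coding transcript length was taken as the median over all annotated protein-coding transcripts of a gene, so that short annotated transcripts lower it. In sham lungs of day 4, the levels of the 47 genes per kilobase of this length were highest for Uqcrh, the hinge protein of complex III, with 282 CPM. They were lowest for Ndufc1, a small complex I subunit, with 29.1. Cox4i1, a regulatory subunit of complex IV, came next to Uqcrh with 263, and Atp5b, the catalytic beta subunit of ATP synthase, followed with 235. In co-exposed lungs of day 4 the levels were 380.0 for Cox4i1, 378 for Uqcrh and 276 for Atp5b.

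After 4 co-exposures, 30 of the 47 genes rose relative to sham and none fell (edgeR's quasi-likelihood F test, Benjamini-Hochberg adjusted p under 0.05 over all genes tested). Of all genes tested, 17.7% rose and 16.3% fell in this comparison. The median log2 fold change of the 47 genes was 0.42, against 0.00 for all genes tested, and 46 of the 47 values were above 0. Against sham at day 4, 32 were above 0 with ozone alone and 10 with carbon black alone. The 47 values of a comparison come from the same libraries and are not independent. The 30 genes that rose had fold changes between 1.22 and 1.79. By the same test, ozone alone changed 1 of the 47 genes at day 4, while 11.7% of all genes tested rose and 9.07% fell. Carbon black alone changed none of the 47, while only 0.161% of all genes tested rose and 0.047% fell. Set directly against ozone alone at day 4, co-exposure gave no call among the 47 genes, and 0% of all genes tested passed. The tests of the differences between exposures are given further on.

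**Figure D1:**
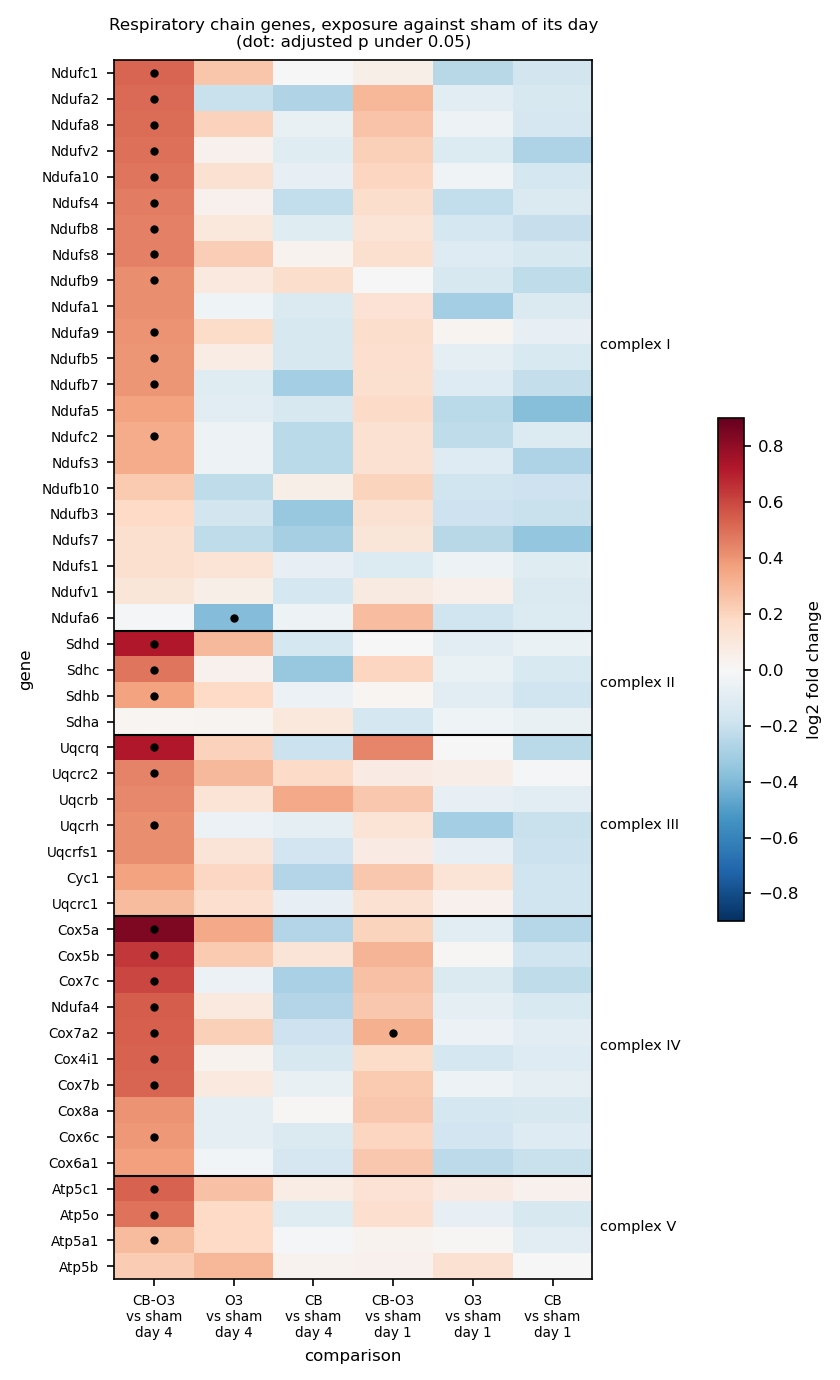
Log2 fold change of the 47 genes (rows, by complex) in each exposure against sham of its day (columns), on a color scale from blue (lower than sham) to red (higher than sham), with a dot where the adjusted p was under 0.05. The co-exposure column of day 4 holds 30 dots, and the other columns hold 2 in all, Ndufa6 (lower with ozone, day 4) and Cox7a2 (higher with co-exposure, day 1).

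In complex I, the NADH dehydrogenase, 13 of 22 genes rose and the median log2 fold change was 0.40. Ndufs8, an iron-sulfur subunit of the matrix arm, had 43.4, 55.9 and 60.7 CPM in co-exposed lungs, against 37.3, 37.8 and 41.8 CPM in sham lungs. All co-exposed libraries lay above all sham libraries, with replicate 1 closest to them, and the log2 fold change was 0.45 ± 0.12 (SE, adjusted p = 0.00373). Ndufa10, an accessory subunit, had 76.7, 92.0 and 102 CPM in co-exposed lungs, against 63.9, 63.0 and 67.0 CPM in sham lungs. These groups did not overlap either, and the log2 fold change was 0.48 ± 0.14 (adjusted p = 0.00707). The other complex I genes that rose were Ndufc1, Ndufa2, Ndufa8, Ndufv2, Ndufs4, Ndufb8, Ndufb9, Ndufa9, Ndufb5, Ndufb7 and Ndufc2, with log2 fold changes between 0.33 and 0.52.

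The 9 complex I genes that did not pass the test included subunits of the catalytic core. Ndufs1, the iron-sulfur subunit that takes electrons from the NADH-binding site, had 79.8, 68.4 and 75.1 CPM in co-exposed lungs, against 63.5, 70.7 and 68.5 CPM in sham lungs (log2 fold change 0.14 ± 0.13, adjusted p = 0.447). Ndufv1, which carries the NADH-binding site, had 67.1, 70.6 and 74.1 CPM in co-exposed lungs, against 64.5, 67.5 and 64.1 CPM in sham lungs (0.11 ± 0.13, adjusted p = 0.526). The groups overlapped for both genes. Ndufa6, an accessory subunit, had 44.7, 67.7 and 66.6 CPM in co-exposed lungs, against 59.8, 55.6 and 64.6 CPM in sham lungs. Here co-exposed replicate 1 was the lowest of the 6 libraries and the other two were the highest, and the log2 fold change was -0.01 ± 0.14 (adjusted p = 0.968).

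In complex II, succinate dehydrogenase, 3 of 4 genes rose. Sdhd, a membrane anchor, had 108, 127 and 127 CPM in co-exposed lungs, against 72.5, 66.7 and 80.1 CPM in sham lungs. The groups did not overlap, and the log2 fold change was 0.72 ± 0.15 (adjusted p = 0.000536). Sdhc, the other membrane anchor, had 96.6, 133 and 135 CPM in co-exposed lungs, against 79.8, 87.3 and 93.8 CPM in sham lungs (0.48 ± 0.15, adjusted p = 0.0143). Sdhb, the iron-sulfur subunit, rose by a log2 fold change of 0.36. Sdha, the flavoprotein that oxidises succinate, had 202, 209 and 198 CPM in co-exposed lungs, against 198, 195 and 209.9 CPM in sham lungs. Its groups overlapped throughout, and the log2 fold change was 0.01 ± 0.11 (adjusted p = 0.936).

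In complex III, the cytochrome bc1 complex, 3 of 7 genes rose and the median log2 fold change was 0.42. Uqcrq, a small accessory subunit, had 52.0, 93.7 and 93.0 CPM in co-exposed lungs, against 47.6, 44.1 and 52.9 CPM in sham lungs. Co-exposed replicate 1 lay within the sham range and the other two well above it (log2 fold change 0.72 ± 0.19, adjusted p = 0.00468). Uqcrc2, a core protein of the matrix side, had 124, 116 and 133 CPM in co-exposed lungs, against 94.4, 80.4 and 98.2 CPM in sham lungs, with no overlap (0.45 ± 0.12, adjusted p = 0.00565). Uqcrh also rose. Cyc1, cytochrome c1, had 67.5, 73.8 and 84.8 CPM in co-exposed lungs, against 54.5, 60.7 and 60.8 CPM in sham lungs. Its groups did not overlap, but it did not pass the test across all genes (0.36 ± 0.18, adjusted p = 0.124). Uqcrc1, the partner core protein of Uqcrc2, had 107, 101 and 128 CPM in co-exposed lungs, against 90.5, 92.0 and 93.1 CPM in sham lungs, also with no overlap (0.29 ± 0.13, adjusted p = 0.0849).

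Complex IV, cytochrome c oxidase, had 8 of 10 genes higher and a median log2 fold change of 0.53. Cox5a, a matrix-facing subunit, had 89.3, 163 and 137 CPM in co-exposed lungs, against 69.7, 67.1 and 79.9 CPM in sham lungs. Every co-exposed library lay above every sham library, and its log2 fold change of 0.84 ± 0.18 (adjusted p = 0.000895), a 1.79-fold difference, was the highest of the 47. Cox4i1 had 213, 325 and 311 CPM in co-exposed lungs, against 189, 179.8 and 219 CPM in sham lungs (0.53 ± 0.13, adjusted p = 0.00271). Cox7a2, a small subunit, had 76.9, 115 and 123 CPM in co-exposed lungs, against 80.8, 64.8 and 71.4 CPM in sham lungs (0.54 ± 0.13, adjusted p = 0.00173). For Cox4i1 and Cox7a2, co-exposed replicate 1 lay within the sham range. Cox5b, Cox7c, Ndufa4, Cox7b and Cox6c also rose. Cox6a1 had 103, 175 and 165 CPM in co-exposed lungs, against 114, 102 and 126 CPM in sham lungs, and did not pass (0.37 ± 0.15, adjusted p = 0.068), nor did Cox8a.

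In complex V, ATP synthase, 3 of 4 genes rose. Atp5c1, the gamma subunit of the turning central stalk, had 152, 160.0 and 188 CPM in co-exposed lungs, against 118, 108 and 121 CPM in sham lungs. The groups did not overlap, and its adjusted p was the smallest of the 47 (0.53 ± 0.11, adjusted p = 0.00052). Atp5o, which joins the stator to the catalytic head, had 98.9, 120.3 and 146 CPM in co-exposed lungs, against 85.4, 80.0 and 94.4 CPM in sham lungs (0.49 ± 0.13, adjusted p = 0.00403). Atp5a1, the alpha subunit, rose by a log2 fold change of 0.28. Atp5b had 578, 469.7 and 539 CPM in co-exposed lungs, against 481, 435 and 437 CPM in sham lungs, with overlapping groups (0.23 ± 0.15, adjusted p = 0.234).

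**Figure D2:**
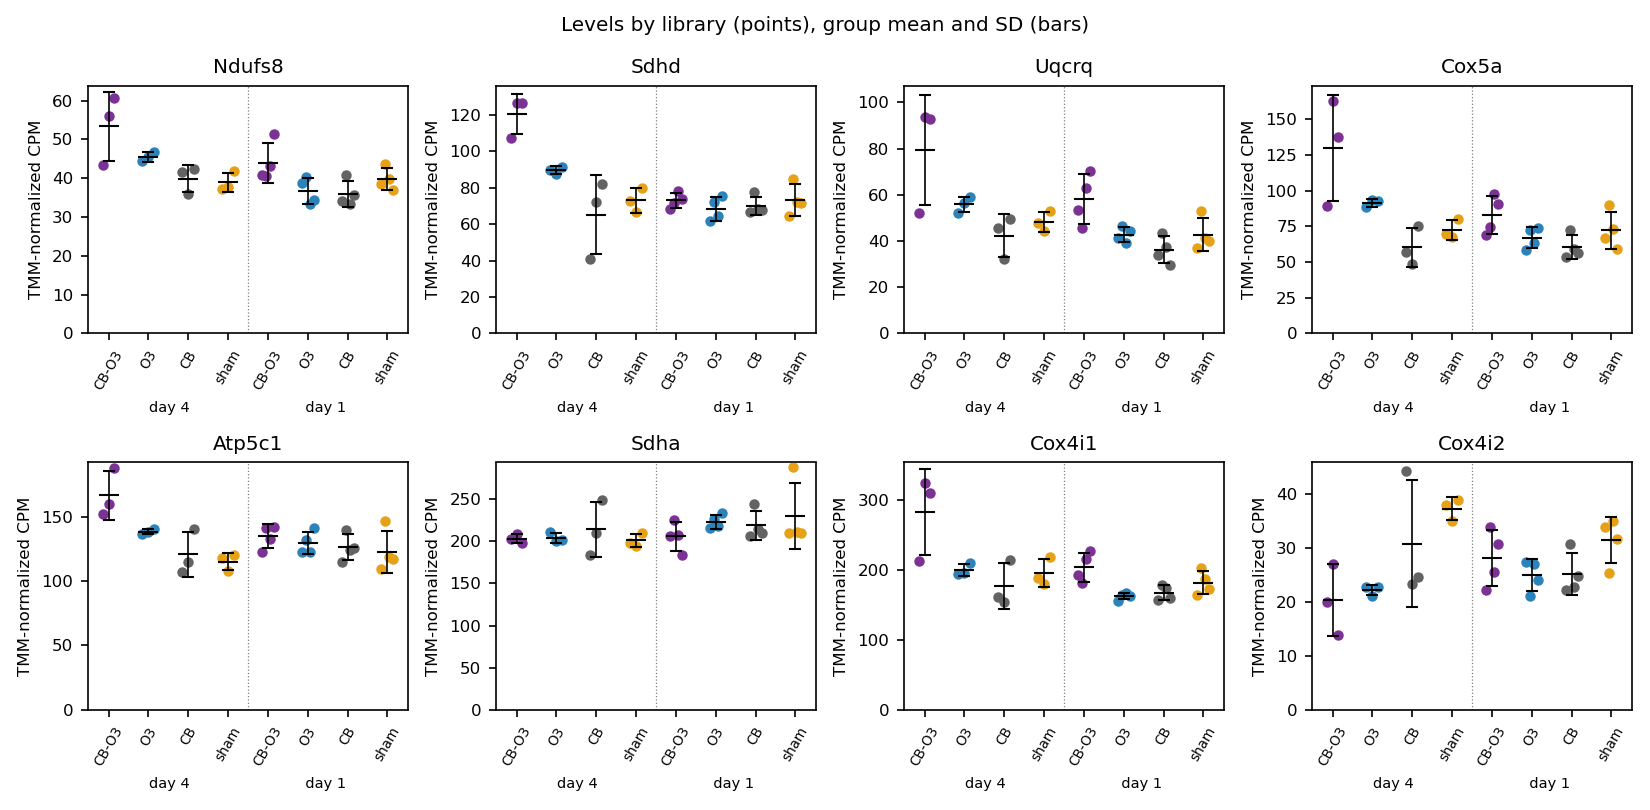
CPM of 7 respiratory chain genes and of Cox4i2, an isoform of Cox4i1, in each library (points), with the mean and SD of each group (bars), day 4 at the left and day 1 at the right of each panel. Sdhd and Cox5a of co-exposed day 4 lungs lie above all sham libraries of that day, Sdha does not differ beyond the spread, and Cox4i2 is lower in both ozone-containing groups of day 4 than in sham.

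The 3 co-exposed libraries of day 4 were not alike. Replicate 1 had the lowest level of the 3 for 42 of the 47 genes. Relative to the sham mean of that day, the median log2 difference of the 47 genes was 0.10 in replicate 1, 0.55 in replicate 2 and 0.56 in replicate 3. In these libraries 21, 44 and 46 of the 47 genes lay above all sham libraries. Over all co-exposed and sham libraries of day 4, 19 of the 47 genes were higher without overlap, and none lower, while 20.7% of all genes tested were higher and 19.5% lower. Without co-exposed replicate 3 the test called 11 of the 47 genes higher, without replicate 2 it called 14, and without replicate 1 it called 38. Without sham replicate 1, 2 or 3 it called 18, 17 and 27. Of all genes tested, 18.5% rose without co-exposed replicate 1 and between 13.9% and 14.9% without any of the other libraries. The test on the co-exposed and sham libraries of day 4 alone, with no spread shared with other groups, called 8, while 11.6% of all genes rose in that test.

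Replicates 2 and 3 had nearly the same median difference for the 47 genes, while the skeletal muscle markers summed to 8.80 CPM in replicate 2 and 819 CPM in replicate 3. Of these 8 markers, 4 were detected in every library. Cardiac muscle markers summed to 225, 483 and 837 CPM in co-exposed lungs, against 488, 917 and 875 CPM in sham lungs. In the same libraries the mean level of the 47 genes, relative to all libraries, was 0.087, 0.54 and 0.57 on the log2 scale with co-exposure. It was -0.025, -0.078 and 0.12 with sham. Ciliated cell markers summed to 630, 826 and 1132 CPM in co-exposed lungs, against 610.4, 674 and 757 CPM in sham lungs, and 3 of these 6 markers rose, among them Foxj1. Erythrocyte markers summed to 4448, 6911 and 3964 CPM in co-exposed lungs, against 30569, 22078 and 11142 CPM in sham lungs, with no overlap, and 6 of 7 fell. In ozone-exposed lungs of that day they summed to 8480, 9047 and 5041 CPM, also below all sham libraries. Macrophage markers summed to 2038, 1467 and 1147 CPM in co-exposed lungs, against 1054, 1119 and 882 CPM in sham lungs, with 5 of 10 higher and 2 lower. Neutrophil markers summed to 189, 273 and 133 CPM in co-exposed lungs, against 82.4, 103 and 69.6 CPM in sham lungs, and 1 of 8 rose. For neither list did the groups overlap. Of 7 T and NK cell markers 5 fell, and all 6 B cell markers fell. Beside these counts, 17.7% of all genes tested rose and 16.3% fell, so that 1 of 8 neutrophil markers was not above the share that rose. The 2 of 10 macrophage markers that were lower were near the share that fell. In bulk tissue, fewer cells of a type and less RNA per cell cannot be told apart, and the part of these cell types in the result was not tested.

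The 47 genes are short, and short genes as a whole were higher in some of the co-exposed libraries. When all genes tested were divided into 10 groups by length, the shortest group had a median log2 difference from the sham mean of day 4 of -0.040 in co-exposed replicate 1, 0.36 in replicate 2 and 0.36 in replicate 3. At day 1 it was 0.056, -0.010, 0.20 and 0.29 in the 4 co-exposed libraries. The exonic length of the 47 genes was between 419 and 8086 bases with a median of 1801, against a median of 4319 for all genes tested. Of the 47 genes, 22 fell in that shortest group and 11 in the next. In co-exposure against sham at day 4, the median log2 fold change over every gene tested was 0.24 in the shortest group and -0.14 in the longest. The 22 members in the shortest group had a median of 0.44, the 11 in the next had 0.40, against 0.17 for all genes of that group, and the 5 members in the fourth had 0.46, against 0.05. Exonic length joins the exons of all transcripts of a gene, and coding transcripts were shorter. Their median was 710 bases for the 47 genes and 2197 for all genes tested. Ndufb8 of the fourth group had 3146 exonic bases, but the median over its coding transcripts was 549.5 bases. Some of the 47 genes were therefore set beside genes with longer transcripts. A trend of the comparison on length, fitted over all genes, gave the 47 genes a median of 0.16, and 44 of the 47 lay above it, by a median of 0.25.

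**Figure D3:**
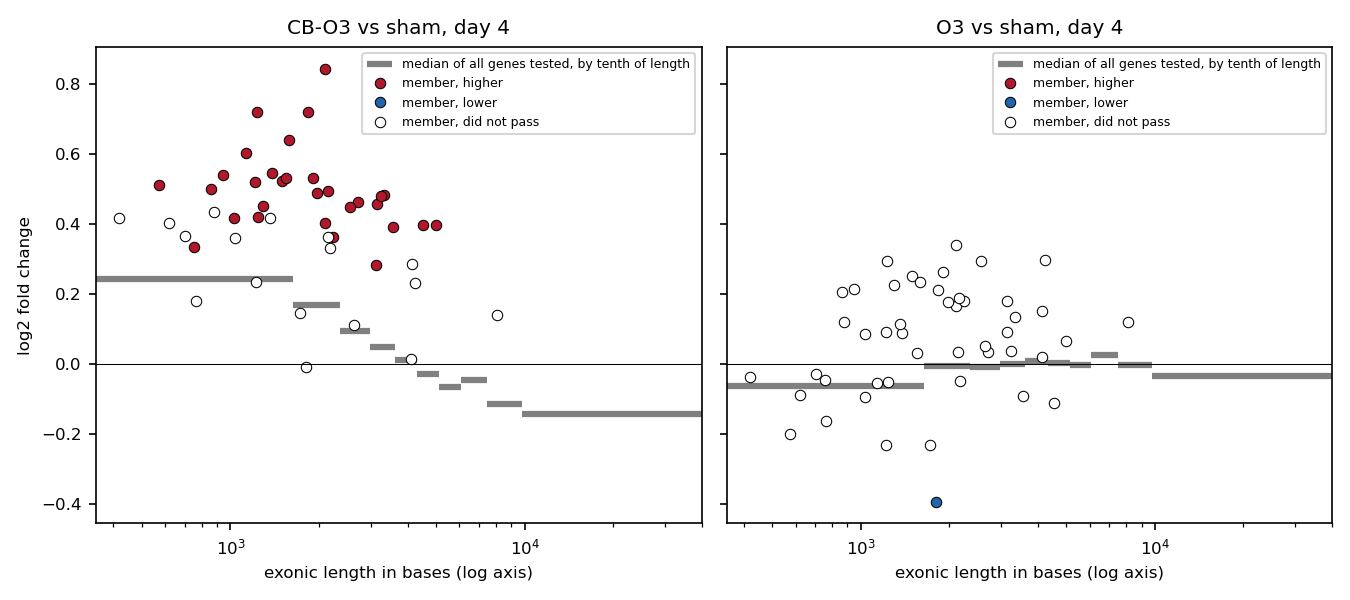
Log2 fold change against exonic length (log axis) for co-exposure (left) and ozone alone (right) at day 4. Grey bars give the median of all genes tested in each of 10 length groups, and points are the 47 genes, filled where the adjusted p was under 0.05. In the left panel the grey bars run from 0.24 for the shortest genes to -0.14 for the longest, and 44 of the 47 points lie above the fitted trend.

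With the length trend of each library taken out before the test, 20 of the 47 genes rose and none fell at day 4 of co-exposure, while 17.9% of all genes tested rose and 15.4% fell. All 20 were among the 30, and the 10 that were lost were Ndufa2, Ndufa8, Ndufa9, Ndufb9, Ndufc1, Ndufc2, Sdhb, Uqcrh, Cox6c and Atp5a1. The median log2 fold change was then 0.25. The calls that remained were 7 in complex I, 2 in complex II, 2 in complex III, 7 in complex IV and 2 in complex V. Cox5a had a log2 fold change of 0.71 ± 0.15 (adjusted p = 0.000951), Uqcrq 0.55 ± 0.15 (adjusted p = 0.00692), Sdhd 0.50 ± 0.15 (adjusted p = 0.00946) and Atp5c1 0.39 ± 0.10 (adjusted p = 0.00502). With the trend taken out, leaving out 1 library of either group gave between 9 and 23 calls, while 14.5% to 16.9% of all genes tested rose. The 9 calls were those without co-exposed replicate 3. With a trend on both length and GC content, 14 genes rose, while 17.6% of all genes tested rose. With a trend on coding transcript length, chosen after seeing the data, 22 of the 47 rose, while 17.9% of all genes tested rose.

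The per-library median difference from sham, with the trend removed, was 0.15 in co-exposed replicate 1, 0.24 in replicate 2 and 0.34 in replicate 3. In these libraries 29, 42 and 43 of the 47 genes then lay above all sham libraries. The libraries were thus closer to each other than before the trend was removed. The cause of the length trend was not tested. Across the 28 libraries, those with more negative length slopes tended to have higher levels of the 47 genes, a description in which both measures come from the same counts. Sham replicate 3 of day 4 also had a negative slope, -0.07, and a mean level of the 47 genes 0.12 above the mean of all libraries on the log2 scale.

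**Figure D4:**
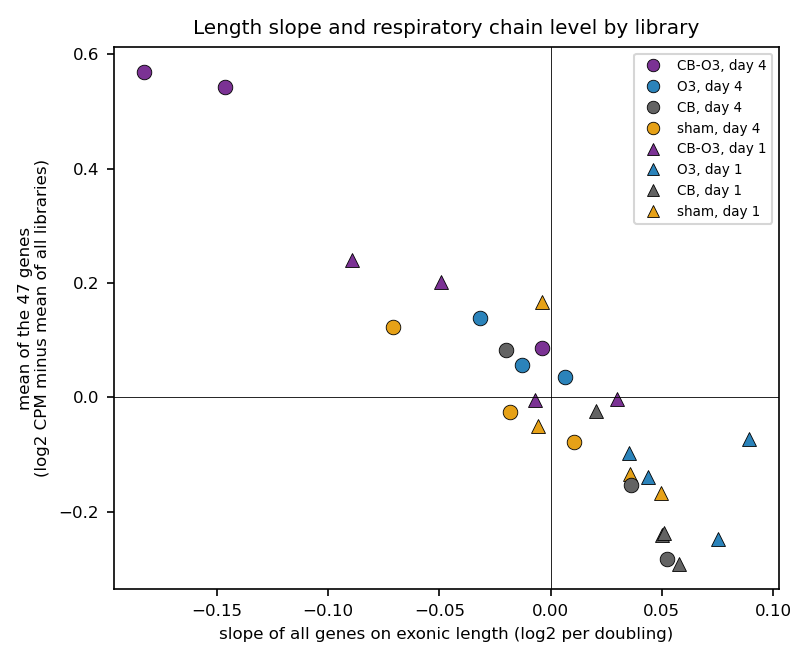
Slope of all genes on exonic length (x axis, log2 per doubling of length) and mean level of the 47 genes (y axis, log2 CPM minus the mean of all libraries) in each of the 28 libraries, circles for day 4 and triangles for day 1. Co-exposed day 4 replicates 2 and 3 stand apart at the upper left, with slopes of -0.15 and -0.18 and means of 0.54 and 0.57, while replicate 1 lies beside the ozone libraries of that day.

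Ozone alone at day 4 gave a median log2 fold change of 0.09 over the 47 genes, and 1 gene fell, while 9.07% of all genes tested fell and 11.7% rose. Ndufa6 had 44.0, 43.8 and 49.4 CPM in ozone-exposed lungs, against 59.8, 55.6 and 64.6 CPM in sham lungs (log2 fold change -0.39 ± 0.14, adjusted p = 0.0485). The groups did not overlap, but no gene of the 47 was called when any 1 library of either group was left out. With the length trend taken out, 2 genes were higher and 1 was lower, against 12.4% and 9.44% of all genes tested, and the ozone and sham libraries of day 4 alone gave 6 calls, 5 higher and 1 lower, while 14.7% of all genes rose and 13.9% fell in that test. Without overlap, 16 genes were higher and 3 were lower, while 22.5% of all genes tested were higher and 20.6% lower. Among the 16 were Sdhd, with 90.0, 87.5 and 91.7 CPM in ozone-exposed lungs, against 72.5, 66.7 and 80.1 CPM in sham lungs (0.29 ± 0.15, adjusted p = 0.173), and Cox5a, with 88.5, 93.6 and 92.4 CPM, against 69.7, 67.1 and 79.9 CPM in sham lungs (0.34 ± 0.18, adjusted p = 0.202).

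Carbon black alone changed none of the 47 genes at day 4 (median log2 fold change -0.13), while 0.161% of all genes tested rose and 0.047% fell. By unadjusted p under 0.05, edgeR gave 2 genes, both lower, against 7.14% of all genes tested lower, and DESeq2 called none after adjustment. With any 1 library of either group left out the test still called none of the 47. Their median was -0.0094 without carbon black replicate 2 and -0.049 without sham replicate 3. Without carbon black replicate 3, the library with muscle markers, it was -0.20, and 2.6% of all genes tested rose and 1.72% fell. Without overlap, none were higher and 2 were lower (Ndufb7 and Cox7c), while 7.95% of all genes tested were higher and 7.64% lower. Replicate 1 of this group had the smallest total, 5135492, and 83843 CPM of mitochondrially encoded transcripts, against 22636 and 25214 CPM in the other two. Its complex II genes lay at a mean of -0.63 on the log2 scale relative to all libraries, with Sdhd at 40.7 CPM, against 72.3 and 82.3 CPM in the other two.

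After a single co-exposure, 1 of the 47 genes rose, while 10.1% of all genes tested rose and 9.09% fell. It was Cox7a2, with 77.2, 76.7, 84.4 and 90.6 CPM in co-exposed lungs, against 61.2, 74.0, 61.5 and 66.6 CPM in sham lungs (log2 fold change 0.32 ± 0.11, adjusted p = 0.0415). Cox7a2 and Ndufa2 were higher without overlap and none of the 47 lower, while 12% of all genes tested were higher and 10.4% lower. With the length trend taken out, none of the 47 was called by edgeR, while 9.62% of all genes tested rose and 9.25% fell. The median of the 47 genes was 0.15, and 44 of the 47 values were above 0, and it was 0.056 with the trend taken out. Without sham replicate 2, the library with muscle and brown fat markers, 4 genes rose (Cyc1, Uqcrc1, Cox7a2 and Uqcrq), while 7.85% of all genes tested rose. Cox7a2 was not called without sham replicate 1, 3 or 4 or co-exposed replicate 3 or 4. Cyc1 had 74.8, 73.3, 78.0 and 65.5 CPM in co-exposed lungs, against 53.7, 87.8, 52.1 and 53.7 CPM in sham lungs, where the second value is that library.

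Neither single exposure alone changed any of the 47 genes at day 1. Of the 47 log2 fold changes, 10 were above 0 with ozone and 1 with carbon black. For ozone the median log2 fold change was -0.10, while 6.81% of all genes tested rose and 4.63% fell, and 2 of the 47 had an unadjusted p under 0.05 in edgeR, both lower, against 11.7% of all genes tested. For carbon black the median was -0.15, while 1.57% of all genes tested rose and 0.0873% fell, and 3 had an unadjusted p under 0.05, all lower, against 3.9% of all genes tested. DESeq2 called none in either, and the ozone and sham libraries of day 1 alone gave 5 calls, all lower, while 7.24% of all genes fell in that test. Without overlap, 5 genes were lower and none higher with ozone, while 9.27% of all genes tested were lower and 12% higher. With carbon black 1 gene, Ndufs7, was lower without overlap and none higher, while 3.57% of all genes tested were lower and 4.74% higher.

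Co-exposure was also set against ozone alone, a comparison that uses no sham library. At day 4 the 47 genes had a median log2 difference of 0.37, but none passed the test, nor did any of all genes tested (0%). By unadjusted p under 0.05, edgeR gave 32 of the 47, all higher, against 10.3% of all genes tested higher. DESeq2 called 6 higher after adjustment, against 2.02% of all genes. With the length trend taken out, the median difference of the 47 genes was 0.16, and again none passed. Without overlap, 11 genes were higher with co-exposure, and none lower, while 9.57% of all genes tested were higher and 9.73% lower. Sdhd was among them, with 108, 127 and 127 CPM in co-exposed lungs, against 90.0, 87.5 and 91.7 CPM in ozone-exposed lungs (0.42 ± 0.15, adjusted p = 0.126). Without co-exposed replicate 1, 34 of the 47 were called higher, while 8.46% of all genes tested were higher and 9.89% lower, so that the absence of calls over all genes depended on that library. The co-exposed libraries that remained, replicates 2 and 3, were those with length slopes of -0.15 and -0.18. The length trend was not taken out in this fit. At day 1 the median was 0.30 and again none passed (0% of all genes), with 26 higher by unadjusted p, against 8.15% of all genes tested, and none by DESeq2. The median was 0.08 with the length trend taken out, with 35 of the 47 values above 0, where 44 were above 0 before. At day 1, 16 genes were higher without overlap, against 5.12% of all genes tested, and none lower, against 3.81%.

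The interaction asks whether the co-exposure differs from the sum of the log2 changes with each agent alone. At day 4 it was positive and past the threshold for 2 of the 47 genes, and negative for none, while it was positive for 0.766% of all genes tested and negative for 0.605%, and its median over the 47 was 0.48, or 0.16 with the length trend taken out. Ndufa2, an accessory complex I subunit, had an interaction of 0.98 ± 0.24 (adjusted p = 0.0448). Its levels were 51.6, 106 and 82.5 CPM with co-exposure, 43.5, 47.1 and 56.1 CPM with ozone, 46.5, 38.1 and 55.0 CPM with carbon black and 57.5, 50.4 and 60.3 CPM with sham. Cox7c had an interaction of 0.95 ± 0.21 (adjusted p = 0.0366). Both calls were lost when the length trend was taken out or when only the day 4 groups were fitted, and both were lost without sham replicate 3, carbon black replicate 1 or 2, any 1 ozone library, or co-exposed replicate 2 or 3, and that of Ndufa2 also without sham replicate 1. Without co-exposed replicate 1 there were 27 calls, all positive, while 7.96% of all genes tested were positive and 11.8% negative. That fit kept the co-exposed libraries with the steep length slopes, and the length trend was not taken out. Without carbon black replicate 3, the library with muscle markers, there were 13, while 3.79% of all genes were positive and 4.78% negative. At day 1 no gene of the 47 passed by edgeR (median 0.47; 0.222% of all genes tested were higher and 1.24% lower), with 32 positive by unadjusted p, against 9.1% of all genes tested. DESeq2 called 6, against 1.07% of all genes, and 19 were called when only the day 1 groups were fitted, against 3.28%. With the length trend taken out the median at day 1 was 0.15.

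The response to co-exposure at day 4 exceeded that at day 1 for 1 of the 47 genes, while 5.44% of all genes tested did so and 4.78% went the other way. It was Sdhd, with a log2 difference of 0.72 ± 0.20 (adjusted p = 0.0197). The call was lost without sham replicate 2 of day 4 and with a trend on both length and GC content taken out. Without co-exposed replicate 1 of day 4 there were 8 calls, against 5.68% of all genes tested, in a fit where the length trend was not taken out. At day 1 Sdhd had 68.2, 71.8, 78.3 and 74.1 CPM in co-exposed lungs, against 64.3, 85.1, 72.0 and 71.4 CPM in sham lungs, with overlapping groups. For ozone alone no gene of the 47 passed in this comparison of days (2.36% of all genes tested were higher and 1.88% lower), with 2 higher by unadjusted p in edgeR, against 9.21% of all genes, and none by DESeq2.

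Other genes of mitochondrial energy supply were read from lists of named genes. Of 31 further nuclear subunits tested, 17 rose with co-exposure at day 4 and none fell (median 0.46), among them the ATP synthase genes Atp5j2 at 0.55 and Atp5e at 0.69 on the log2 scale. With the length trend taken out, 14 rose, while 17.9% of all genes tested rose. Of 42 assembly factors, 11 rose, or 26.2%, against 17.7% of all genes tested (median 0.17), with Ndufaf3, an assembly factor of complex I, at 0.80 ± 0.16. Of 54 mitochondrial ribosome genes, 30 rose and none fell (median 0.42), and 25 did so with the trend taken out. Of 16 genes of the tricarboxylic acid cycle, 5 rose, with Mdh2, malate dehydrogenase, at 0.54 and Cs, citrate synthase, at 0.51.

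Of the 13 subunit genes of mitochondrial DNA, none passed in co-exposure against sham at day 4, and their median of 0.19 became -0.08 with the length trend taken out. Their summed level was 16291, 28970 and 48884 CPM in co-exposed lungs, against 22182, 27769 and 32502 CPM in sham lungs, so the groups overlapped. Of 17 regulators of mitochondrial biogenesis, 2 fell and none rose, a share of 11.8%, against 16.3% of all genes tested that fell. Polg, the mitochondrial DNA polymerase, had a log2 fold change of -0.51 ± 0.09, and Gabpb2, a subunit of GABP, had -0.32 ± 0.13. Ppargc1a, a coactivator of respiratory genes, had -0.39 ± 0.22 (adjusted p = 0.19) and Tfam, the mitochondrial transcription factor, had 0.12 ± 0.11 (adjusted p = 0.42). Of 18 glycolysis genes 8 rose and 1 fell, while 17.7% of all genes tested rose and 16.3% fell, with Gapdh at 1.01 and Pkm at 0.74.

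**Figure D5:**
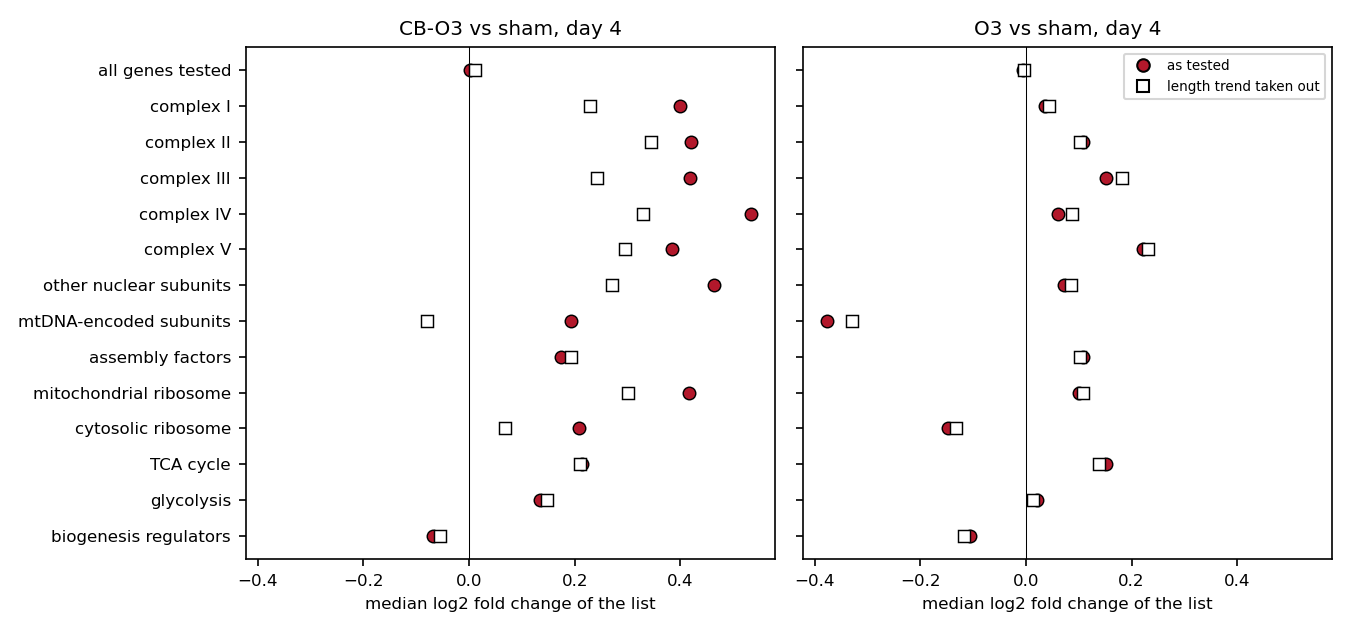
Median log2 fold change of each complex and list for co-exposure (left) and ozone alone (right) against sham at day 4, as tested (red circles) and with the length trend taken out (white squares). As tested, complex IV has the highest median with co-exposure, 0.53. With the trend taken out complex II has the highest, 0.35, against 0.33 for complex IV, and the median of the subunits of mitochondrial DNA changes sign with co-exposure.

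Of 6 isoforms tested that replace common subunits in particular tissues or conditions, 2 fell and 1 rose with co-exposure at day 4. Of all genes tested, 16.3% fell and 17.7% rose, so the count of 1 higher was not above that share. Cox4i2, the isoform of Cox4i1 known from lung, had 20.0, 27.1 and 13.8 CPM in co-exposed lungs, against 38.0, 35.0 and 39.0 CPM in sham lungs (log2 fold change -0.88 ± 0.21, adjusted p = 0.00237). It also fell with ozone alone at day 4, with 22.9, 21.1 and 22.7 CPM (-0.75 ± 0.21, adjusted p = 0.0122). Ndufa4l2, a paralog of Ndufa4 known to be induced by low oxygen, had 11.1, 11.6 and 11.1 CPM in co-exposed lungs, against 20.3, 18.6 and 23.0 CPM in sham lungs (-0.88 ± 0.20, adjusted p = 0.00145). In each of these comparisons the groups did not overlap. Cox6b2, an isoform known from testis, rose at low levels, with 14.3, 18.9 and 23.5 CPM in co-exposed lungs, against 8.66, 10.6 and 11.3 CPM in sham lungs (0.89 ± 0.18, adjusted p = 0.000508).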

How the data were processed

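Stranded mRNA libraries (TruSeq, 51-base paired-end reads) were mapped and quantified with Salmon 1.1.0, per the labels' protocols. The submitters' processing notes also name build mm10, R 3.6.3 and DESeq2, without their roles. The authors deposited estimated counts per gene, not normalized, of which 17.7% were not whole, and these were rounded here. Symbols, exonic lengths and GC content came from GENCODE M21, which held 35505 of the 35880 identifiers. Genes with low counts were removed by edgeR's filterByExpr. All 28 libraries entered 1 edgeR 4.0.16 fit (TMM scaling, robust quasi-likelihood F test, 1 mean per group), with Benjamini-Hochberg adjustment over 14887 genes at 0.05. The length trend was a lowess curve (span 0.3) of each library's deviations on log2 exonic length, used as an offset. The fit was tested on simulated data for co-exposure against sham at day 4. It recovered 10% to 22% of changes of 0.5 and 82% to 89% of changes of 1.0 on the log2 scale. Most changes of 0.5 were therefore missed. Alternatives were DESeq2 1.42.0, other scaling, no filter, the compared groups alone, replicate blocks, left-out libraries and, chosen after seeing the data, a trend on coding transcript length and left-out libraries with the length trend. Replicate numbers are in the titles. Deviations of same-numbered libraries correlated over 0.1 in 12 of 42 pairs, and in all pairs of 1 of 12 pairs of groups, co-exposure and sham at day 4 (0.15 to 0.35). Genes given library by library are, in each complex, the 2 with the smallest p and the 1 with the largest p in co-exposure against sham at day 4, the 1 with the smallest p at day 1, and 8 fixed genes. The 47 genes and all lists were chosen with earlier results of these data known. Ndufa2, Cox7c and the other genes named because they alone passed a test were chosen after their values were seen. Salmon divides reads shared by near-identical copies by estimate, and many respiratory chain genes have processed pseudogenes, so their counts are uncertain to that extent.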

Additional observations from a re-analysis of the deposited data

Results flagged for a closer look

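In 10 of 76 sets of 4 day 1 libraries, 1 per described gene and group, the highest library lay far from the others by Dixon's test, which by chance flags about 1 in 20. Sham replicate 2 of day 1 accounted for 7 of them, with 81.1 CPM of Ndufa10 (others 56.8 to 60.5), 288 of Sdha (209 to 211), 139 of Uqcrc2 (96.2 to 103), 87.8 of Cyc1 (52.1 to 53.7), 664 of Atp5b (453 to 481), 103 of Ndufs1 (67.6 to 72.5) and 130 of Uqcrc1 (86.6 to 90.8). This library also had 1876 CPM of skeletal muscle markers and 426 CPM of brown fat markers, and their part in these levels was not tested. Carbon black replicate 2 of day 1 had 77.5 CPM of Sdhd (others 66.8 to 68.3) and 125 CPM of Uqcrc2 (103 to 107). This library had 316 CPM of brown fat markers and 30869 CPM of erythrocyte markers. Ozone replicate 4 of day 1 had 109 CPM of Uqcrc1 (others 98.8 to 99.9).

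Effects differed between conditions by a test of the difference itself for 3 genes. The interaction of carbon black and ozone at day 4 was 0.98 for Ndufa2 and 0.95 for Cox7c on the log2 scale, and both calls were lost with the length trend taken out. The co-exposure response of Sdhd was 0.72 higher at day 4 than at day 1 on the log2 scale. This call was lost without sham replicate 2 of day 4 and with a trend on both length and GC content taken out.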

How the results depend on the processing

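The counts of the 47 genes called moved as follows where they changed by more than 1.5 times. For co-exposure against sham at day 4, where 30 were called, a trend on length and GC gave 14 and the compared groups alone gave 8. Of all genes tested, 17.6% and 11.6% rose in these settings. For co-exposure at day 1, where 1 was called, no filter and every length trend gave 0, and the compared groups alone gave 2. There, 5.1% of all genes rose with no filter, 9.53% to 10.1% with the length trends and 10.4% with the compared groups alone. For ozone at day 4, where 1 was called, no filter gave 0, the length trend gave 3 with or without the replicate block, length and GC gave 2, and the compared groups alone gave 6. Of all genes, 6.12% rose and 4.47% fell with no filter. In the other settings named, 12.3% to 14.7% rose and 9.44% to 13.9% fell. The compared groups alone gave 5 for ozone at day 1, all lower, while 7.24% of all genes fell. They gave 19 for the interaction at day 1, all positive, against 3.28% of all genes, and 0 for the interaction at day 4, against 0%. DESeq2 gave 6 for co-exposure against ozone at day 4, against 2.02% of all genes higher. It gave 6 and 10 for the interactions at day 1 and day 4, against 1.07% and 3.18% of all genes positive. For the co-exposure response at day 4 minus day 1 it gave 2, against 6.51% of all genes higher, where length and GC gave 0, against 6.13%. For the interaction at day 4, no filter gave 1 and the 3 length trends without a block gave 0. Of all genes, 0.133% were positive with no filter and 0.107% to 0.168% with those trends.

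The replicate block gave 33 calls for co-exposure against sham at day 4, and 21 together with the length trend, while 17.8% of all genes tested rose in each. For co-exposure against ozone at day 4 it gave 3, while 0.638% of all genes tested were higher and 0.551% lower. Same-numbered libraries of these groups correlated at only 0.012 to 0.063. For the interaction at day 4 it gave 10, while 2.49% of all genes tested were positive and 3.15% negative. Of the groups in that interaction, co-exposure and sham correlated over 0.1 in all pairs, and co-exposure and ozone in none. The block moved no other count by over 1.5 times.

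With 1 library left out, the counts were 11 to 38 for co-exposure against sham at day 4 (9 to 23 with the length trend taken out, 11 without sham replicate 2 and 18 without sham replicate 3), 0 to 4 at day 1, 0 to 34 for co-exposure against ozone at day 4, 0 to 4 and 0 to 27 for the interactions at day 1 and day 4, 0 to 8 for the co-exposure response at day 4 minus day 1, and 0 for the other comparisons, including ozone at day 4. Of all genes tested, 13.9% to 18.5% rose for co-exposure against sham at day 4 (14.5% to 16.9% with the length trend taken out) and 6.79% to 10.2% at day 1. For co-exposure against ozone at day 4, 0% to 8.46% were higher. The interactions were positive for 0.0403% to 0.927% at day 1 and 0% to 7.96% at day 4. For the co-exposure response, 3.9% to 5.68% were higher. Of the genes described library by library, 2 changed sign. Ndufa6 was -0.01 with all libraries, 0.04 without sham replicate 3 and 0.17 without co-exposed replicate 1, and lowest at -0.11 without co-exposed replicate 2. Sdha was 0.01 with all libraries, -0.021 with length and GC, -0.0060 with coding length, -0.0044 without sham replicate 2, 0.045 without sham replicate 3 and -0.0068 without co-exposed replicate 2. The causes of these changes were not tested. With 3 or 4 libraries a group, a gene that did not pass is not shown to be unchanged.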
